A study of Mus musculus with 25 samples.

Results

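LysoMac are the lysozyme-expressing macrophages of Peyer's patches, the organized lymphoid follicles in the wall of the small intestine, and they were sorted here into cells with and without TIM-4 on their surface. TIM-4, encoded by Timd4, binds phosphatidylserine on dying cells and tethers them for uptake, and it is widely used as a marker of long-lived resident macrophages in the gut and elsewhere. The comparison used 6 of the 25 arrays of the series, 3 of TIM-4- LysoMac and 3 of TIM-4+ LysoMac, chosen by their sample titles. The question is which transcripts separate macrophages that share one gate and differ in TIM-4.

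Per the labels, all cells came from untreated wild-type female C57BL/6 mice of 6 to 8 weeks. Both LysoMac groups were positive for BST2, CD4 and SIRPα, with high CD11c and low MHC class II, and differed in TIM-4. The labels place TIM-4- LysoMac mainly in the subepithelial dome, the zone beneath the epithelium that samples the gut lumen. TIM-4+ LysoMac are placed mainly in the interfollicular region, the T cell zone. Location and surface TIM-4 therefore cannot be told apart in this comparison. Each replicate pooled the patches of 42 mice, digested in lots of 3 mice for 40 min, enriched on CD11c beads and sorted. The amplification started from 2 to 20 ng of RNA. Untreated CD11b+ conventional dendritic cells (cDC, 5 arrays) and CD11b- CD8α- (DN) cDC (3 arrays), sorted as CD11c high, MHC class II positive, SIRPα+ and BST2-, served as a reference of the same array set.

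In gut macrophages, newly arrived monocytes carry CD11b and inflammatory transcripts and mature over time, and those that persist can acquire TIM-4. MHC class II molecules present peptides to CD4 T cells. Their genes are switched on together by the coactivator CIITA, which acts through conserved promoter boxes, among them the Y box. In the Peyer's patch, macrophages of the dome lie next to cells that carry luminal antigen, while interfollicular macrophages lie among T cells and vessels.

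The deposited values are log2 signals, so a difference of 1 is a 2-fold change. The rows of these arrays were not in the order of the deposited row names, and genes were named through an alignment to the arrays that were, which gave values for 17925 of 19938 genes. The median signal over these genes lay between 4.86 and 4.95 on the 6 LysoMac arrays. Correlations over genes were 0.9875 to 0.9944 within a LysoMac group and 0.9834 to 0.9914 between the groups, so the ranges overlapped. Differences are TIM-4+ minus TIM-4-, with their standard error (SE), from limma fitted to the 14 arrays of the set. A gene was called where the p-value, adjusted by Benjamini-Hochberg over all 17925 genes, was under 0.05. In these bulk samples, fewer cells with a transcript and less of it per cell cannot be told apart.

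Few genes separated the groups. TIM-4+ LysoMac had 14 genes higher and 34 lower than TIM-4- LysoMac, together 0.268% of the genes tested (0.0781% higher and 0.19% lower), and 33 of the 48 differed by at least 2-fold. The largest negative differences were those of Plet1, Bst1 and the class II genes H2-Aa, H2-Eb1, Cd74 and H2-Ab1, and the largest positive ones those of Timd4, Cybrd1, Ccl19 and Abcc3. In each of the 48 the 3 TIM-4+ arrays lay wholly above or below the 3 TIM-4- arrays, an order that 10.8% of all genes showed. The median difference of all genes was -0.003, and 868 genes (4.84%) had an unadjusted p under 0.05. With the 6 LysoMac arrays fitted alone 29 genes were called, and 23 of the 48 were among them.

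**Figure D1:**
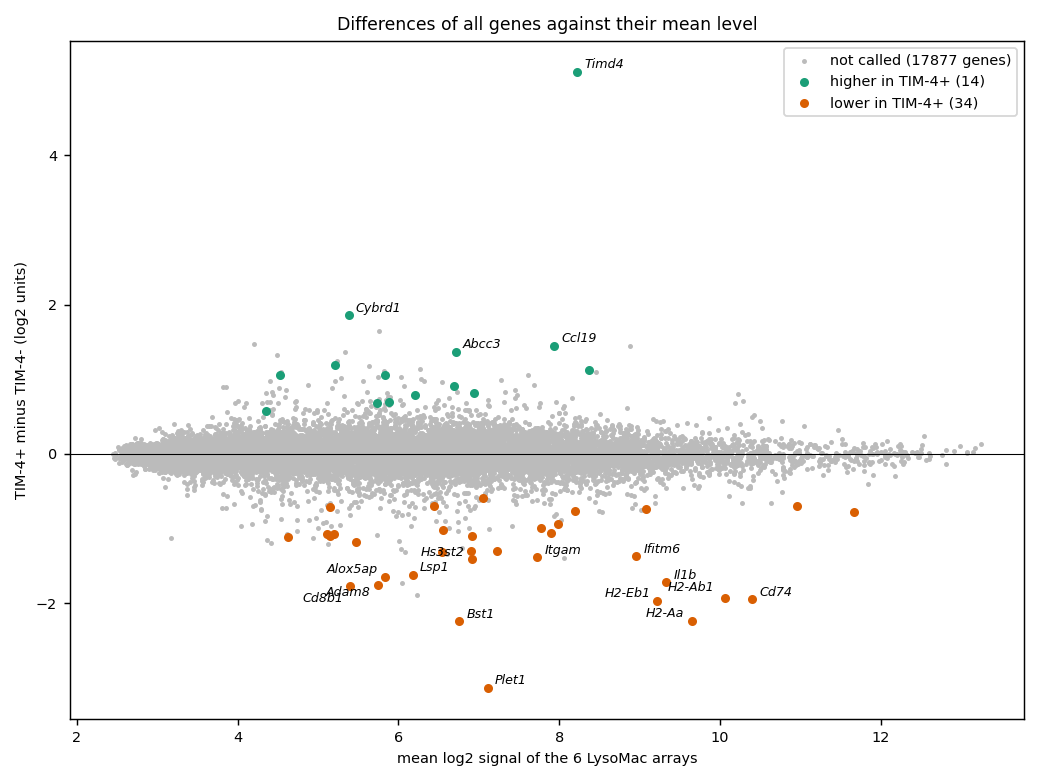
Each point is 1 of 17925 genes, with the mean log2 signal of the 6 LysoMac arrays on the x axis and the difference TIM-4+ minus TIM-4- in log2 units on the y axis. Coloured points are the 14 genes called higher and the 34 called lower, and Timd4 at 5.12 and Plet1 at -3.13 lie farthest from 0.

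The genes of the sort markers were read first. Timd4 measured 5.15, 5.29 and 6.56 on the TIM-4- arrays and 10.80, 10.76 and 10.80 on the TIM-4+ arrays, so the library labels and the transcript of the sorted protein went together. The third TIM-4- array was the highest of its group, yet far below every TIM-4+ array. The difference was 5.12 ± 0.37 (SE, adjusted p = 1.76e-05). In CD11b+ cDC Timd4 lay between 7.08 and 8.59, above all 3 TIM-4- LysoMac arrays.

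Of the 6 genes Timd4, Itgam, Cd4, Itgax, Bst2 and Sirpa, which encode gate markers other than MHC class II, the test called Timd4 and Itgam. Itgam, the integrin chain CD11b that the labels use to divide the cDC, measured 8.44, 8.34 and 8.48 in TIM-4- and 7.12, 7.12 and 6.85 in TIM-4+ LysoMac. It was lower by 1.39 ± 0.23 log2 units in the TIM-4+ arrays (difference -1.39, adjusted p = 0.02), and its TIM-4+ level fell within the range of CD11b+ cDC, 6.85 to 7.49. Cd4 measured 9.64, 10.11 and 10.04 against 10.64, 10.69 and 10.61, with no overlap between the groups, but its difference of 0.71 ± 0.18 was not called (adjusted p = 0.247). Itgax, which encodes CD11c, differed by -0.35 ± 0.14 (adjusted p = 0.881). Bst2 differed by 0.10 ± 0.21 and Sirpa by 0.02 ± 0.14, and neither was called. Itgam lost its call without any 1 of the 6 LysoMac arrays in turn, with adjusted p from 0.0607 without TIM-4+ replicate 1 to 0.107 without TIM-4- replicate 1, and it was called with the 6 arrays alone (adjusted p = 0.00644).

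**Figure D2:**
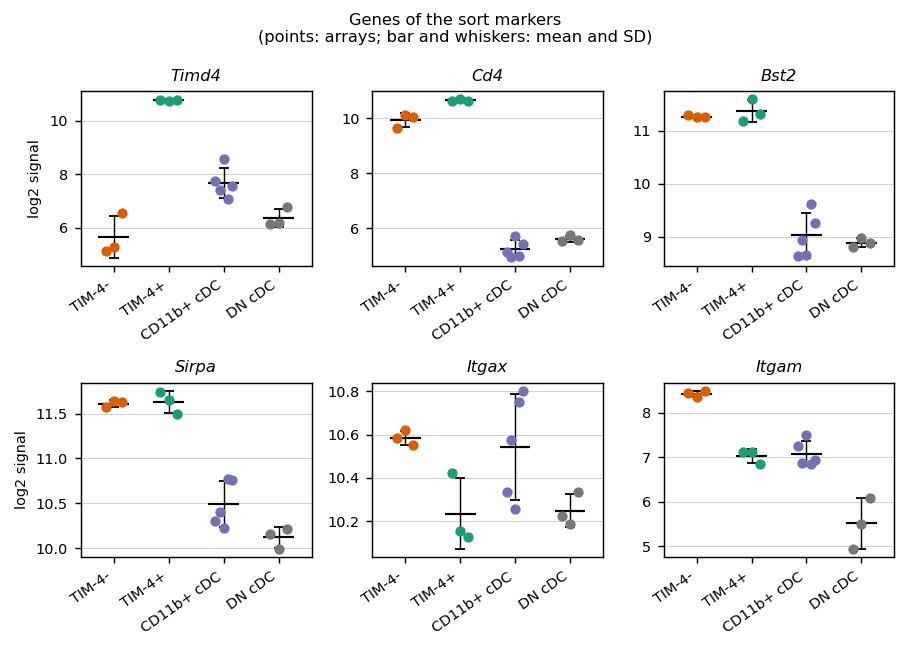
Each panel gives the log2 signal (y axis) of the gene of a sort marker on every array of TIM-4- LysoMac, TIM-4+ LysoMac, CD11b+ cDC and DN cDC, with the mean and SD of each group. Timd4 separates both LysoMac groups by 5.12 log2 units and Itgam by -1.39, while Bst2 and Sirpa overlap.

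MHC class II genes made up the largest block of called genes that belonged to 1 list. Of 11 measured genes for class II presentation, 5 were lower in TIM-4+ LysoMac and 0 were higher, beside 0.19% and 0.0781% of all genes. The median difference of the list was -0.60, beside -0.003 for all genes. The 5 were the classical chains H2-Aa, H2-Ab1 and H2-Eb1, the invariant chain Cd74, which guides class II molecules to endosomes, and Ciita. The list was chosen with earlier results of these data known. H2-Aa, H2-Eb1, H2-Eb2 and H2-Oa share the letters CTGATTGG, the Y box, before their start, and they are shown because the first pair was called and the second was not. The 120 bases before each start, in RefSeq's GRCm38.p6 and 5′ to 3′ on the gene's strand, carry that match in capitals. The regions are chr17:34287824-34287943 on the minus strand for H2-Aa and, on the plus strand, chr17:34305747-34305866 for H2-Eb1, chr17:34325555-34325674 for H2-Eb2 and chr17:34092259-34092378 for H2-Oa.
H2-Aa: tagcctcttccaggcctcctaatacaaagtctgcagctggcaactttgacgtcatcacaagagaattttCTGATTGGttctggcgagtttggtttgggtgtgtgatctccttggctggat
H2-Eb1: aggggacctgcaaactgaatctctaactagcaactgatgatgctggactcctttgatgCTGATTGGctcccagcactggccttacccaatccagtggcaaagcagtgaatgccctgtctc
H2-Eb2: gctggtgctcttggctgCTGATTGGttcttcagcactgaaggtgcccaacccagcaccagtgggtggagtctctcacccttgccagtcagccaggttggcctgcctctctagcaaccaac
H2-Oa: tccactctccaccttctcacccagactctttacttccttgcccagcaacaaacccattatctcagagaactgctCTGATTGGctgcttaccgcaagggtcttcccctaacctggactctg

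Counted back from the base before the start, the match begins at position -51 in H2-Aa, -62 in H2-Eb1, -103 in H2-Eb2 and -46 in H2-Oa. Over the 300 bases from 250 before to 50 after the start, searched on both strands, 4 of the 8 measured class II genes with a promoter in the table held it, against 4.1% of all promoters. H2-Ab1, Cd74 and Ciita were not searched. Among the 4 genes printed, the match stood both before genes that were called and before genes that were not.

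H2-Aa measured 10.95, 10.76 and 10.59 in TIM-4- LysoMac and 7.79, 9.37 and 8.43 in TIM-4+ LysoMac. The groups did not overlap, and the TIM-4+ arrays were spread more widely. The difference was -2.24 ± 0.27 (adjusted p = 0.0014), a 4.73-fold lower signal. H2-Eb1 measured 10.39, 10.16 and 10.07 against 8.05, 8.73 and 7.93, a difference of -1.97 ± 0.17 (adjusted p = 7.73e-05). H2-Ab1, the partner chain of H2-Aa, measured 11.26, 10.96 and 10.89 against 8.40, 9.68 and 9.22, with a difference of -1.94 ± 0.23 (adjusted p = 0.00113). Across these 3 chains the second TIM-4+ array was always the highest of its group and still below every TIM-4- array.

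Cd74 followed the chains, at 11.59, 11.45 and 11.09 in TIM-4- and 8.65, 10.26 and 9.37 in TIM-4+ LysoMac. Its difference was -1.95 ± 0.28 (adjusted p = 0.00423). Ciita was at a low signal in both groups, 5.45, 5.43 and 5.65 against 4.87, 4.75 and 4.76, a difference of -0.72 ± 0.12 (adjusted p = 0.0167). Here the 3 TIM-4+ arrays lay within a narrow range, unlike those of the chains.

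The other class II genes did not pass the test. H2-DMa, a chain of the DM molecule that edits the peptide load, measured 10.57, 10.31 and 10.31 against 9.87, 9.97 and 9.66, which did not overlap, with a difference of -0.56 ± 0.16 (adjusted p = 0.387). H2-Eb2 differed by -0.60 ± 0.23 and its arrays overlapped. H2-Oa and H2-Ob, chains of the DO molecule that inhibits DM, differed by 0.05 ± 0.15 and -0.21 ± 0.16. Ctss, the protease that trims the invariant chain, and Ifi30, a thiol reductase of endosomes, differed by 0.0024 ± 0.12 and -0.0044 ± 0.10. H2-DMb1 and H2-DMb2 were not analysed here.

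The class II signal of both LysoMac groups was below that of cDC, which were sorted as class II positive. H2-Aa lay between 12.08 and 12.40 in CD11b+ cDC, so TIM-4- LysoMac were lower by -1.46 ± 0.24 and TIM-4+ LysoMac by -3.70 ± 0.24, each difference called against the same cDC arrays. For Ciita, at 9.05 to 9.51 in CD11b+ cDC, the differences were -3.77 ± 0.11 and -4.49 ± 0.11. Ctss ran the other way, 11.16 to 11.66 in CD11b+ cDC and 11.81 or higher on all LysoMac arrays. With the 6 LysoMac arrays fitted alone only H2-Eb1 of the class II genes was called (adjusted p = 0.0163), and H2-Aa had an adjusted p of 0.0891, H2-Ab1 0.0833, Cd74 0.186 and Ciita 0.0602. Ciita was also not called without TIM-4+ replicate 2 (0.0914), TIM-4+ replicate 3 (0.0862), TIM-4- replicate 1 (0.06) or TIM-4- replicate 3 (0.0984), nor with a trended, robust eBayes prior (0.0536).

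**Figure D3:**
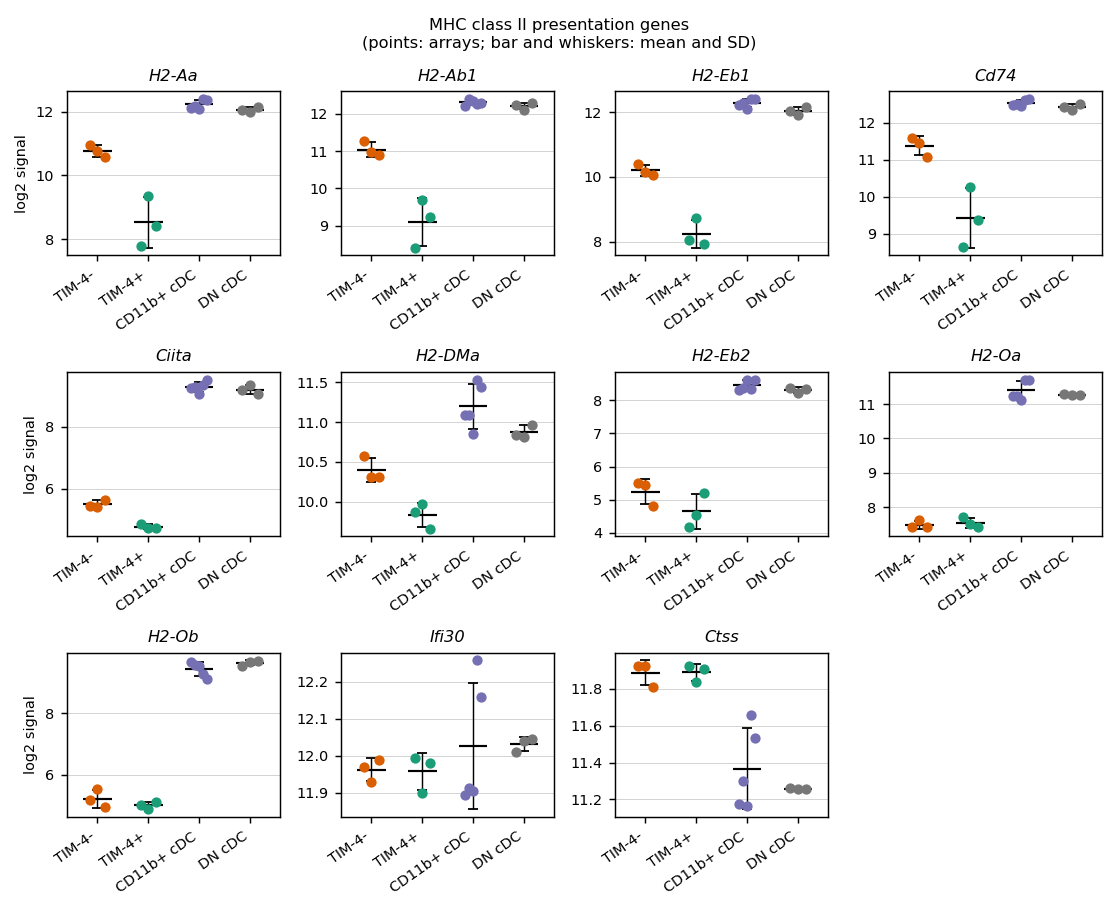
Each panel gives the log2 signal (y axis, scaled to the gene) of a class II presentation gene on every array of the 4 groups, with the mean and SD. H2-Aa, H2-Ab1, H2-Eb1, Cd74 and Ciita lie lower in TIM-4+ than in TIM-4- LysoMac on every array and highest in cDC, whereas H2-Oa, Ifi30 and Ctss overlap between the LysoMac groups.

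Plet1 had the largest negative difference of all genes. This surface protein, anchored by a lipid and known from epithelial progenitors, measured 8.90, 8.34 and 8.80 in TIM-4- LysoMac and 5.50, 5.39 and 5.75 in TIM-4+ LysoMac. The difference was -3.13 ± 0.16 (adjusted p = 3.16e-07), and CD11b+ cDC were higher still, at 11.76 to 12.00. Bst1, the ectoenzyme CD157, measured 7.89, 7.62 and 8.13 against 5.72, 5.57 and 5.61, with a difference of -2.25 ± 0.31 (adjusted p = 0.00399). Its TIM-4- level was above that of every cDC array, where Bst1 reached 6.81. Both genes kept their call without any 1 of the LysoMac arrays and with the 6 arrays alone.

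A list of genes linked to recent monocyte origin had 3 of 16 measured members lower, Plet1, Itgam and Ifitm6, and 0 higher. Of all genes 0.19% were called lower, and the median difference of the list was -0.42. This list too was chosen with earlier results of these data known. Ifitm6, an interferon-induced membrane protein of myeloid cells, measured 9.86, 9.64 and 9.45 against 8.38, 8.35 and 8.10, a difference of -1.37 ± 0.11 (adjusted p = 4.57e-05). CD11b+ cDC were higher for Ifitm6, at 11.14 to 11.37, as they were for Plet1. The alarmin S100a8 measured 7.72, 5.43 and 8.40 against 4.35, 5.80 and 5.71, and the second TIM-4- array lay within the TIM-4+ range. Its difference of -1.90 ± 0.60 was not called (adjusted p = 0.555). Plac8 was at 6.85, 7.57 and 7.84 against 4.22, 7.13 and 7.12, so its difference of -1.26 ± 0.57 rested mostly on the first TIM-4+ array, and it was not called. S100a6 differed by -0.29 ± 0.10 and the lysozyme gene Lyz2, high in both groups, by 0.10 ± 0.09.

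Of 9 measured genes of the IL-1 family 1 was called, beside 0.268% of all genes. It was Il1b itself, the inflammatory cytokine released after inflammasome activation. It measured 10.50, 9.70 and 10.37 in TIM-4- and 8.70, 8.06 and 8.65 in TIM-4+ LysoMac. The difference was -1.72 ± 0.24 (adjusted p = 0.00401), with an adjusted p of 0.0613 in the 6 arrays alone. Il1a, the related cytokine, measured 9.62, 9.49 and 9.79 against 9.68, 9.20 and 9.64, overlapping, with a difference of -0.13 ± 0.30. The receptor antagonist Il1rn, at -0.27 ± 0.14, and the IL-18 binding protein Il18bp, at 0.37 ± 0.13, did not overlap between the groups and were not called. Il1r2, the decoy receptor for IL-1, had only a row that the alignment paired without accepting it, so its name is less certain. That row measured 8.56, 8.18 and 8.23 against 6.70, 5.80 and 6.50 (difference -1.99 ± 0.21, adjusted p = 0.000498 among all paired rows).

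Genes for lipid mediators and secreted inhibitors included Alox5ap and Il22ra2. Alox5ap, the protein that hands arachidonic acid to 5-lipoxygenase, measured 6.64, 6.36 and 6.96 against 4.81, 4.81 and 5.40. It was the called member among 15 measured eicosanoid genes, beside 0.268% of all genes called, with a difference of -1.65 ± 0.22 (adjusted p = 0.00279). The cyclooxygenase Ptgs2 measured 8.70, 7.93 and 8.78 against 7.92, 7.18 and 7.63 and, at -0.89 ± 0.36, was not called. Il22ra2, the soluble IL-22 binding protein that blocks IL-22, was near the top of the signal range in both groups, at 12.08, 12.10 and 12.00 against 11.44, 11.27 and 11.13. It differed by -0.78 ± 0.12 (adjusted p = 0.0105). It was the 1 called gene of 17 measured members of the cytokine list, beside 0.268% of all genes called. That list held neither Il1b nor the chemokines. The call of Il22ra2 was lost without TIM-4+ replicate 2 (0.0603), TIM-4+ replicate 3 (0.0736), TIM-4- replicate 1 (0.0615) or TIM-4- replicate 2 (0.0574), and with the 6 arrays alone (0.0516).

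Of 28 measured iron handling genes 1 was called higher and 1 lower, beside 0.0781% and 0.19% of all genes. The other 26 were not called, and the list median was 0.02. Cybrd1, a ferric reductase known from duodenal iron uptake, measured 4.74, 4.51 and 4.10 in TIM-4- and 6.44, 6.32 and 6.16 in TIM-4+ LysoMac, a difference of 1.86 ± 0.16 (adjusted p = 7.73e-05). Tfrc, the transferrin receptor through which cells take up iron, measured 7.95, 7.98 and 7.71 against 6.66, 6.57 and 6.50, a difference of -1.30 ± 0.10 (adjusted p = 1.76e-05). Both genes were called in all 6 fits without 1 LysoMac array. The iron exporter Slc40a1 measured 4.91, 5.47 and 5.79 against 5.85, 6.63 and 5.87, higher on every TIM-4+ array but close between the third arrays, and its difference of 0.73 ± 0.24 was not called (adjusted p = 0.613).

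Called adhesion and matrix genes lay in both directions too, where 0.0781% of all genes were called higher and 0.19% lower. Of 21 integrin chains, Itga6, the laminin receptor chain α6, was higher and Itgam lower. Itga6 measured 3.95, 4.07 and 3.98 against 4.86, 5.18 and 5.13 (difference 1.06 ± 0.15, adjusted p = 0.00401). Of 21 metalloproteinase genes, Adam8, a sheddase of leukocytes, and Adam23 were lower. Adam8 measured 6.81, 6.37 and 6.68 against 5.31, 4.71 and 4.57 (difference -1.76 ± 0.19, adjusted p = 0.00052), and Adam23, a member without protease activity, differed by -1.07 ± 0.15 (adjusted p = 0.00401). Under quantile normalization Adam23 was not called (adjusted p = 0.0595). Hs3st2, which adds 3-O-sulfate to heparan sulfate, measured 7.53, 7.52 and 7.82 against 6.24, 6.41 and 5.98, with a difference of -1.41 ± 0.17 (adjusted p = 0.0014). Sulf1, which removes 6-O-sulfate from it, was higher by 0.57 ± 0.11 (adjusted p = 0.0457) and lost that call without any 1 of the 6 arrays, with adjusted p from 0.0615 without TIM-4- replicate 1 to 0.228 without TIM-4- replicate 3. It was also not called with the 6 arrays alone (0.154) or with arrays shifted to a common median (0.0625).

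Further genes lower in TIM-4+ LysoMac encode receptors and signalling proteins of leukocytes. Cd8b1, the CD8 β chain, measured 6.15, 6.15 and 6.56 in TIM-4- and 4.39, 4.50 and 4.65 in TIM-4+ LysoMac, with a difference of -1.77 ± 0.21 (adjusted p = 0.00126). Cd8b1 in CD11b+ cDC, 4.31 to 4.94, covered the TIM-4+ values. Ffar2, a receptor for short-chain fatty acids made by gut bacteria, measured 7.41, 7.11 and 7.08 against 5.77, 5.69 and 6.18 (difference -1.32 ± 0.13, adjusted p = 0.000295). Cd244a, a receptor of the SLAM family, measured 7.68, 7.52 and 7.48 against 5.99, 6.36 and 6.42, and differed by -1.30 ± 0.15 (adjusted p = 0.000841). Lsp1, an actin-binding protein of leukocytes, measured 6.83, 7.03 and 7.10 against 4.85, 6.26 and 4.99, so that the second TIM-4+ array stood well above the other two. Its difference of -1.62 ± 0.26 had an adjusted p of 0.0134, which rose to 0.0573 without TIM-4+ replicate 1, 0.084 without TIM-4+ replicate 3, 0.0647 without TIM-4- replicate 2, 0.0742 without TIM-4- replicate 3 and 0.251 with the 6 arrays alone.

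Kmo, an enzyme of tryptophan breakdown, and Aldoc, an aldolase of glycolysis, were lower too. Kmo measured 5.27, 5.34 and 4.92 against 3.88, 4.18 and 4.13 (difference -1.11 ± 0.21, adjusted p = 0.0457). Aldoc measured 5.76, 5.60 and 5.85 against 4.71, 4.52 and 4.78 (difference -1.07 ± 0.20, adjusted p = 0.0427). Neither gene kept its call without any 1 of the 6 LysoMac arrays, with adjusted p from 0.0546 (TIM-4- replicate 3) to 0.238 (TIM-4- replicate 1) for Kmo and from 0.0838 (TIM-4- replicate 2) to 0.203 (TIM-4- replicate 3) for Aldoc. Kmo was also not called with arrays shifted to a common median (0.0626), nor Aldoc under quantile normalization (0.0603). In the main fit Kmo was the 1 called gene among 14 measured markers of cDC2, and Aldoc among 19 glycolysis genes, whose median difference was -0.18. That fit called 0.268% of all genes.

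The remaining 12 lower genes outside these lists are named because they were called, after their values were seen. Jaml, an adhesion molecule of myeloid and T cells, differed by -1.18 ± 0.13, the bombesin-like peptide receptor Grpr by -1.10 ± 0.20, the adaptor Stap1 by -1.10 ± 0.14 and the activating receptor Tarm1 by -1.05 ± 0.13. Nav1, a microtubule-binding protein, differed by -1.02 ± 0.13, the transporter Slco3a1 by -0.99 ± 0.125, the adhesion receptor Adgre5 (CD97) by -0.94 ± 0.17 and the polysialyltransferase St8sia4 by -0.76 ± 0.11. Tpm4, a tropomyosin, differed by -0.74 ± 0.09, the sodium pump regulator Fxyd5 by -0.70 ± 0.11, the matrix protein Spon1 by -0.70 ± 0.13 and the lysosomal trafficking regulator Lyst by -0.60 ± 0.11. Slco3a1 was the most even of them, at 8.27, 8.28 and 8.27 against 7.28, 7.38 and 7.20. Adgre5, Lyst and Spon1 lost their calls without any 1 of the 6 LysoMac arrays, with adjusted p of up to 0.222, 0.194 and 0.238. Fxyd5 lost it without TIM-4+ replicate 2 or 3 or TIM-4- replicate 1 or 3 (up to 0.0873), and Grpr without TIM-4+ replicate 2 or 3 or TIM-4- replicate 1 or 2 (up to 0.232). With the 6 arrays alone these 5 genes were not called, nor were Nav1 (adjusted p = 0.0516), St8sia4 (0.0856), Stap1 (0.131) and Tpm4 (0.0568). Tpm4 was also not called under quantile normalization (0.0603), Fxyd5 not under cyclic loess (0.0657) and Lyst under neither (0.191 and 0.148).

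The genes higher in TIM-4+ LysoMac encode a growth factor, chemotactic and adhesive ligands, transporters and endosomal proteins. Igf1, a growth factor that tissue macrophages make, measured 7.80, 7.70 and 7.94 in TIM-4- and 8.74, 9.00 and 9.08 in TIM-4+ LysoMac. The difference was 1.13 ± 0.15 (adjusted p = 0.00234). In cDC it was near the bottom of the range, 3.94 to 4.44 in CD11b+ cDC. Igf2r, the receptor that clears IGF2 and carries hydrolases to lysosomes, measured 5.39, 5.49 and 5.28 against 6.14, 6.24 and 5.83 (difference 0.68 ± 0.10, adjusted p = 0.00834). It was not called without TIM-4+ replicate 1 (0.0502), TIM-4+ replicate 2 (0.0577) or TIM-4- replicate 3 (0.0546), nor with the 6 arrays alone (0.191).

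Abcc3, an efflux pump for organic anions, measured 5.55, 6.16 and 6.38 against 7.31, 7.14 and 7.73, with a difference of 1.36 ± 0.20 (adjusted p = 0.00744), and missed the threshold only without TIM-4+ replicate 3 (0.0508) among the fits without 1 array. Ccl19, a ligand of the homing receptor CCR7, measured 7.61, 7.04 and 6.99 against 8.16, 8.95 and 8.86. The first TIM-4- and TIM-4+ arrays were the closest, and the difference was 1.44 ± 0.20 (adjusted p = 0.00423). With the 6 arrays alone neither Abcc3 (adjusted p = 0.144) nor Ccl19 (0.135) was called. A second transcript cluster of Ccl19 differed by 1.42. Near-identical copies of this gene lie in its locus, so which copy gave the signal is uncertain. Among 20 chemokines Ccl19 was the 1 called gene, beside 0.268% of all genes called. Ccl2 measured 5.13, 4.77 and 4.44 against 6.36, 4.72 and 6.32, with the second TIM-4+ array inside the TIM-4- range, and was not called.

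Madcam1, the mucosal ligand of the α4β7 integrin known from gut vessels, measured 4.42, 4.69 and 4.72 against 6.05, 5.45 and 5.90 (difference 1.19 ± 0.16, adjusted p = 0.00351), and it was not called with the 6 arrays alone (adjusted p = 0.0613). Igfbp7 and Sparc, also markers of stroma and endothelium, had another order among the TIM-4+ arrays. Igfbp7 measured 5.26, 4.67 and 4.88 in TIM-4- and 5.02, 8.32 and 6.40 in TIM-4+ LysoMac, and Sparc 4.82, 4.71 and 4.44 against 4.58, 7.38 and 6.08. Both peaked on the second TIM-4+ array, where Madcam1 was lowest, and were within the TIM-4- range on the first, where Madcam1 was highest. Of 19 measured markers of stroma and endothelium, Madcam1 was the called gene, beside 0.268% of all genes called. Of these markers 15 had a difference above 0 and 4 below. Their mean signal was 4.27 to 4.39 in TIM-4- and 4.46 to 5.04 in TIM-4+ LysoMac, against 5.96 to 6.28 in DN cDC. The part of such cells in the Madcam1 difference was not tested.

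A further 5 genes were higher in TIM-4+ LysoMac. Agpat3, an acyltransferase of phospholipid synthesis, differed by 1.05 ± 0.19, and Rasgrp1, an activator of Ras, by 0.91 ± 0.17. Mcoln2, a cation channel of endosomes and lysosomes, differed by 0.82 ± 0.16, the phospholipase Plcb4 by 0.78 ± 0.13 and Ube2ql1, a ubiquitin-conjugating enzyme, by 0.70 ± 0.13. Ube2ql1 lost its call without any 1 of the 6 LysoMac arrays (adjusted p up to 0.223). Agpat3 kept it only without TIM-4- replicate 2 (otherwise up to 0.199) and Rasgrp1 only without TIM-4- replicate 3 (otherwise up to 0.238). Mcoln2 and Plcb4 lost it without TIM-4+ replicate 2 or 3 or TIM-4- replicate 1 or 3, with adjusted p up to 0.246 and 0.0854. With the 6 arrays alone Rasgrp1 (adjusted p = 0.226), Mcoln2 (0.238), Plcb4 (0.138) and Ube2ql1 (0.0613) were not called, and Agpat3 was (0.0430). With arrays shifted to a common median Rasgrp1 (0.0705), Mcoln2 (0.0988) and Ube2ql1 (0.0626) were not called. Under cyclic loess Rasgrp1 (0.0646) and Mcoln2 (0.0586) were not.

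**Figure D4:**
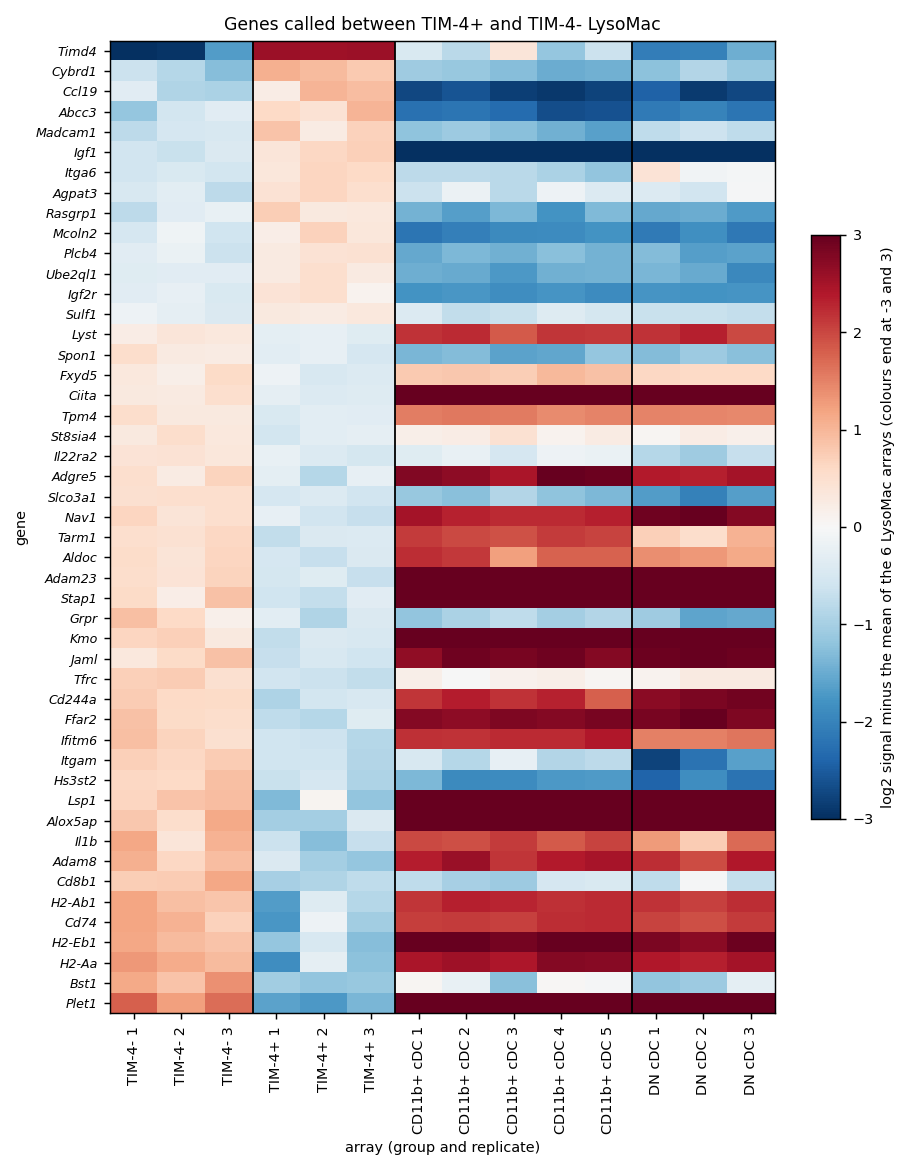
Rows are the 48 called genes in order of their difference, columns are the 14 arrays by group and replicate, and colour is the log2 signal minus the mean of the 6 LysoMac arrays, ending at -3 and 3. All 48 rows split the 3 TIM-4- from the 3 TIM-4+ columns, and the second TIM-4+ column is paler in H2-Aa, H2-Ab1, H2-Eb1, Cd74 and Lsp1.

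Of 19 measured core macrophage genes limma called 0 in either direction, where it called 0.268% of all genes. The median difference was 0.10, beside -0.003 for all genes. Most of the 19 leaned one way without passing the test, 17 with a difference above 0 and 2 below. In 4 of the 19, Mertk, Axl, Selenop and Tlr4, all TIM-4+ arrays lay above all TIM-4- arrays, an order that 5.04% of all genes showed. Mertk, a receptor for dying cells, measured 8.39, 8.58 and 8.41 against 8.93, 8.71 and 8.90 (difference 0.38 ± 0.14, adjusted p = 0.783), and Axl, of the same receptor family, differed by 0.33 ± 0.16. Csf1r, the receptor for the macrophage growth factor, differed by 0.06 ± 0.11 and Cx3cr1, the fractalkine receptor, by 0.21 ± 0.15. These levels were far above those of CD11b+ cDC, where Mertk lay between 3.31 and 3.76, so both groups carried the markers of their label.

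Among 17 measured genes of resident macrophages, Igf1 was the called gene, beside 0.268% of all genes called, and the median difference was 0.09. Vcam1, an adhesion molecule of resident macrophages, measured 10.15, 10.24 and 10.12 against 10.69, 10.69 and 10.70, without overlap, and its difference of 0.52 ± 0.13 was not called (adjusted p = 0.247). Spic, the regulator of iron-recycling macrophages, differed by 0.41 ± 0.26. Lyve1 and Mrc1, markers of some resident subsets, were at a low signal in both groups, 3.88 to 4.31 and 3.08 to 3.28, and differed by -0.06 ± 0.11 and 0.08 ± 0.09. Folr2, Cd163, Vsig4, Stab1 and Cd36 of this list were not analysed here.

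Of 21 efferocytosis genes Timd4, which the sort fixes, was the called gene, with a list median of -0.02. Lysosome genes had 0 calls in 39 measured members, with a median of 0.05. Atp6v0d2, a subunit of the proton pump, measured 9.74, 9.95 and 9.78 against 10.32, 10.66 and 10.91, without overlap, and was not called (0.81 ± 0.19, adjusted p = 0.189). There were 0 calls among 15 interferon-stimulated genes, 34 cell cycle genes, 15 antimicrobial genes and 18 genes of innate sensors, with medians of 0.04, -0.05, -0.03 and -0.03. Of all genes 0.268% were called, a share at which lists of these sizes would mostly hold 0 calls. These counts therefore do not show that the lists were unchanged. Interferon-stimulated genes were thinly covered, with 15 of 28 members measured.

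Cholesterol synthesis genes had 0 calls in 20 measured members, but 9 of them lay lower on every TIM-4+ array beside 5.79% of all genes. The list median was -0.43. Pmvk, a kinase of the mevalonate pathway, measured 7.56, 7.35 and 7.00 against 6.44, 6.82 and 6.47 (difference -0.73 ± 0.14, adjusted p = 0.0552). Idi1 measured 7.37, 7.40 and 7.17 against 6.38, 6.89 and 6.82 (-0.62 ± 0.20), and Hmgcs1, which makes the precursor of mevalonate, 8.58, 8.72 and 8.64 against 8.31, 8.35 and 8.07 (-0.41 ± 0.12). Cyclic loess or quantile normalization between arrays gave 1 called member in the list. Genes of cholesterol efflux had a median of 0.08 and 0 calls in 16, with Apoc1 at 8.24, 7.37 and 8.89 against 9.19, 9.74 and 9.88 (1.44 ± 0.41, adjusted p = 0.409).

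Each LysoMac group was also set beside CD11b+ cDC. TIM-4- LysoMac differed in 3864 genes (21.6%), 1772 higher (9.89%) and 2092 lower (11.7%), and TIM-4+ LysoMac in 4220 genes (23.5%), 1935 higher (10.8%) and 2285 lower (12.7%). Which direction held more genes depended on the setting. Cyclic loess gave 2070 higher and 1827 lower for TIM-4- and 2178 and 2013 for TIM-4+ LysoMac. Both comparisons share the cDC arrays, so they were not tested against each other. For Plet1 the differences from CD11b+ cDC were -3.24 ± 0.14 in TIM-4- and -6.37 ± 0.14 in TIM-4+ LysoMac. For Alox5ap they were -4.49 ± 0.20 and -6.14 ± 0.20, and for Kmo -4.17 ± 0.19 and -5.28 ± 0.19. Other called genes lay on the far side of cDC, as Igf1 at 3.72 ± 0.13 and 4.84 ± 0.13, and Hs3st2 at 2.41 ± 0.15 and 1.00 ± 0.15. Tfrc lay above CD11b+ cDC in TIM-4- LysoMac (0.55 ± 0.09) and below them in TIM-4+ LysoMac (-0.76 ± 0.09), both called.

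Markers of other cells moved between arrays, and their part in the differences was not tested. The 14 measured markers of cDC2 averaged 5.66 to 5.74 in TIM-4- and 5.37 to 5.48 in TIM-4+ LysoMac. In CD11b+ cDC they averaged 8.20 to 8.47. The called class II genes, Plet1, Alox5ap and Kmo were also higher on every CD11b+ cDC array than on every TIM-4- array. So were most other genes called lower, namely Adam8, Adam23, Adgre5, Aldoc, Cd244a, Ffar2, Fxyd5, Ifitm6, Il1b, Jaml, Lsp1, Lyst, Nav1, Stap1, Tarm1 and Tpm4. Bst1, Cd8b1, Grpr, Hs3st2, Il22ra2, Itgam, Slco3a1, Spon1 and Tfrc were lower on every CD11b+ cDC array than on every TIM-4- array, and St8sia4 overlapped. Flt3, a defining cDC receptor, measured 5.61, 5.51 and 5.64 against 5.27, 4.86 and 5.25, without overlap, and at -0.46 ± 0.13 was not called, while Zbtb46, a cDC transcription factor, differed by 0.05 ± 0.16. Of the 14 markers 12 had a difference below 0 and 2 above. Among the TIM-4+ arrays the second was highest for H2-Aa at 9.37 and had the lowest cDC2 mean, but these means spanned only 5.37 to 5.48.

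Epithelial markers were highest on the third TIM-4- array, where the antimicrobial lectin Reg3b measured 9.43 beside 3.85 and 3.79 on the others, and the 20 markers averaged 5.96 there beside 4.57 and 4.39. They averaged 4.52, 4.90 and 5.16 on the TIM-4+ arrays, and 0 were called. Neutrophil markers averaged 4.52 to 4.97 against 4.39 to 4.59, with S100a8 and S100a9 furthest apart between the groups, while Ly6g, which defines neutrophils, was at 2.66 to 2.82 on all 6 arrays. NK and innate lymphoid markers averaged 4.23 to 4.71 against 4.06 to 4.33, with Gzma at 4.96, 7.69 and 7.36 against 4.30, 5.31 and 6.58. T cell markers averaged 5.27 to 5.53 against 5.21 to 5.30. The T cell chain Cd3e measured 5.72, 6.56 and 6.28 against 5.60, 5.66 and 5.65, without overlap, and was not called (-0.55 ± 0.21). B cell markers averaged 5.80 to 5.89 against 5.67 to 5.86 and plasma cell markers 5.75 to 5.88 against 5.69 to 6.07, each with 0 called. Markers of cDC1 averaged 5.92 to 6.06 against 5.92 to 6.02, and those of plasmacytoid dendritic cells 7.52 to 7.74 against 7.49 to 7.64, again with 0 called.

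**Figure D5:**
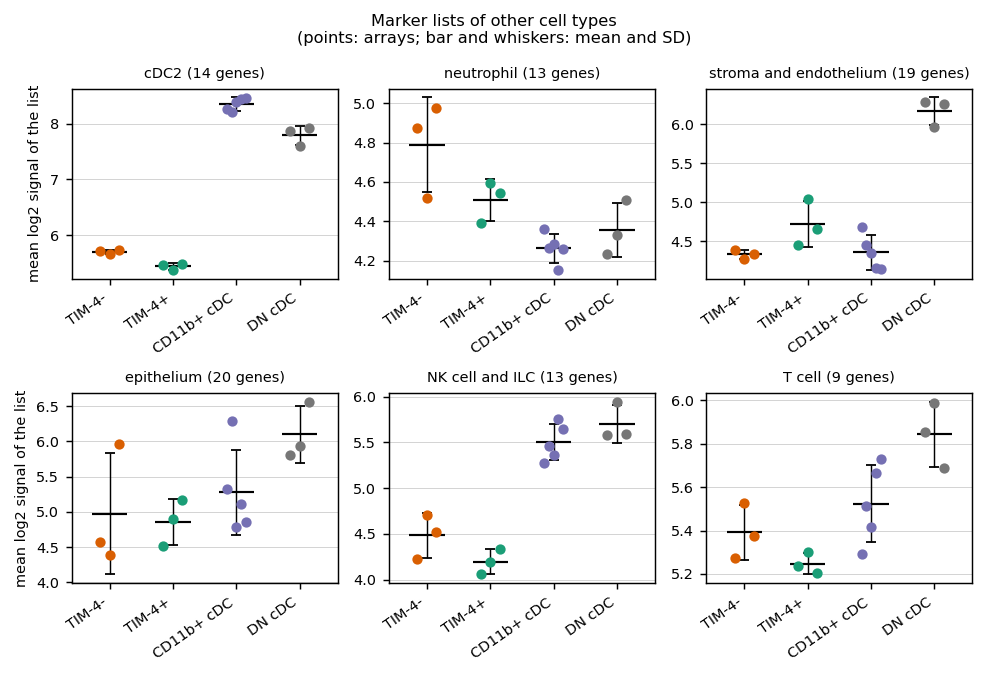
Each panel gives, for every array of the 4 groups, the mean log2 signal (y axis, scaled to the list) of the measured markers of another cell type, with the mean and SD of each group. TIM-4+ LysoMac lie below TIM-4- LysoMac for cDC2 markers (5.37 to 5.48 against 5.66 to 5.74), the second TIM-4+ array stands out for stroma and endothelium at 5.04, and the third TIM-4- array for epithelium at 5.96.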

How the data were processed

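Each of the 25 samples is 1 Affymetrix Mouse Gene 1.0 ST array. The deposited values are log2 signals that the authors computed with RMA in Affymetrix Expression Console 1.4.1, per the submitters' processing notes. RMA levels between arrays, and low signals are compressed. The precision is limited by 3 arrays per LysoMac group. Replicates are independent per the series' design text, each of 42 pooled mice per the labels.

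The columns fall into 3 array sets with different row orders, with row correlations of at least 0.938 within a set and at most 0.225 across sets. The row names fit the R848 arrays. The 14 untreated CD11b+ cDC, DN cDC and LysoMac arrays were aligned to them by an order-keeping pair hidden Markov model of mean levels in untreated and R848 CD11b+ cDC. Of 28939 aligned rows 24682 (85.3%) were accepted, where the posterior was at least 0.95, the partner was the same with gap opening 3 times more or less likely, and a second route through the untreated CD8α+ arrays did not disagree. That route gave the same partner for 100% of 22042 rows after rounding, and 1 row with another partner was dropped. Rows rolled out of place gave 0. The matching used levels in cDC, so genes that respond strongly to R848 are under-represented, and LysoMac values were not used. Accepted rows of one gene with 2 transcript clusters (678 genes) correlated at 0.801 in level and 0.44 in difference.

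Names came from clusters with 1 symbol in the platform annotation (21789, beside 1621 with several). A gene took its cluster of highest mean. limma 3.58.1 (R 4.3.3) fitted 4 group means over 14 arrays (lmFit, eBayes, two-sided, Benjamini-Hochberg), which was tested on simulated data. There it recovered 17 of 50 genes changed by 0.5 log2 units, 40 of 50 changed by 1 and 48 of 50 changed by 1.5. It also called 7 genes that were not changed. Differences of 0.5 were thus often missed. Replicate numbers are shared between the groups, but the labels do not say that equal numbers share a pool or day, so the main fit has no block. Deviations from the group means correlated at 0.134, 0.0528 and 0.0399 between arrays of the same number. Between different numbers they ran from -0.112 to 0.0583, and only TIM-4- replicate 2 with TIM-4+ replicate 3 was above 0. Named genes are the sort markers, the 15 largest differences each way among called genes without overlap (14 were higher), the called and up to 4 largest members of each list, cell type markers, and all members of the class II and macrophage lists. The 13 called genes outside that rule were named after their values were seen. Members and lists were chosen with earlier results of these data known. Alternatives changed the normalization, array weights, the eBayes prior, the filter, the rows accepted, the cluster, the arrays fitted, the block and each replicate. p-values measure the spread between pools.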

Additional observations from a re-analysis of the deposited data

Results flagged for a closer look

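The level of Bst1 in CD11b+ cDC, given above as a reference, had 1 array far below the rest of its group of 5. That array measured 5.496 on the log2 scale, the nearest of the others 6.543 and the farthest 6.815, so the gap was 0.794 of the group's range. It lies in the reference group and not in either LysoMac group. Of 58 levels in that group tested in this way 1 stood out, and about 1 in 20 would by chance.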

How the results depend on the processing

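The 48 genes called between TIM-4+ and TIM-4- LysoMac became 82 with array weights, 30 with rows at least 10 from a gap (9841 genes tested), 29 with the 6 LysoMac arrays alone and 10 with those arrays and the replicate block. Arrays shifted to a common median gave 43 (10 higher, 33 lower). The replicate block in the full fit gave 71 (21 higher, 50 lower). Whether equal replicate numbers share a pool or day is not known from the labels, so the blocked counts are given as alternatives. Against CD11b+ cDC the replicate block gave 1973 higher and 1911 lower genes for TIM-4- and 2117 and 2067 for TIM-4+ LysoMac. TIM-4- replicate 2 correlated best with TIM-4+ replicate 3. The 5 class II genes became 1 with the 6 arrays alone and 0 with these and the replicate block. Against CD11b+ cDC, rows at least 10 from a gap gave 2086 genes for TIM-4- and 2280 for TIM-4+ LysoMac. Fewer genes were tested there, and for the other settings the cause was not tested.

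Leaving out 1 replicate gave 33 to 42 genes between the LysoMac groups, 4 to 5 class II genes, 3111 to 3919 genes for TIM-4- and 3406 to 4236 for TIM-4+ LysoMac against CD11b+ cDC. Of the 48 genes 29 were called in all 6 of these fits without a LysoMac array. Counted apart from the fits that leave out an array, 9 were called in every other setting that measured them. None of the 48 changed direction in the settings run.

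Uncalled values near 0 changed sign. Without 1 LysoMac replicate, Ctss ranged from -0.036 to 0.029, Ifi30 from -0.022 to 0.024, Bst2 from -0.011 to 0.19, H2-Oa from -0.029 to 0.12 and Sirpa from -0.033 to 0.089. Ctss was -0.013 with arrays shifted to a common median, -0.026 with array weights, -0.036 without TIM-4- replicate 3, -0.016 without TIM-4+ replicate 1 and -0.0061 without TIM-4+ replicate 3. Ifi30 was 0.039 with cyclic loess, 0.037 with quantile normalization, 0.0090 without TIM-4- replicate 3 and 0.024 without TIM-4+ replicate 2. Bst2 was -0.011 without TIM-4+ replicate 2, and without TIM-4+ replicate 1 H2-Oa was -0.029 and Sirpa -0.033.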

Other observations

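Several genes outside the calls did not overlap between the groups and lay close to the threshold. They are named after their values were seen. S1pr1, the receptor for sphingosine 1-phosphate that guides exit from tissue, measured 4.51, 4.50 and 4.82 in TIM-4- and 5.29, 6.38 and 5.90 in TIM-4+ LysoMac (1.25 ± 0.27, adjusted p = 0.113). Gpr183, the oxysterol receptor that positions cells in lymphoid tissue, measured 8.19, 8.42 and 7.99 against 7.62, 7.66 and 7.50 (-0.61 ± 0.13, adjusted p = 0.0958). The complement protein C2 measured 6.69, 7.30 and 7.67 against 8.16, 8.28 and 7.99 (0.92 ± 0.20, adjusted p = 0.106). Timp2, an inhibitor of metalloproteinases, measured 10.01, 10.27 and 10.18 against 10.71, 10.59 and 10.63 (0.49 ± 0.10, adjusted p = 0.0958). The endocytic lectin Ly75 measured 5.31, 5.49 and 5.67 against 6.11, 6.10 and 6.54 (0.76 ± 0.16, adjusted p = 0.101).

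Of 13 measured costimulation genes 0 were called by limma, beside 0.268% of all genes, with a median difference of -0.05. Cd86 measured 7.48, 7.89 and 8.02 against 8.52, 8.26 and 8.25, and Icosl 5.13, 5.75 and 5.12 against 5.89, 5.90 and 5.91, so both lay higher on every TIM-4+ array, as 5.04% of all genes did. Cd274 measured 9.50, 9.65 and 9.48 against 9.38, 9.35 and 9.16, and Havcr2 9.06, 9.24 and 9.10 against 8.90, 8.99 and 8.85, so both lay lower on every TIM-4+ array, as 5.79% of all genes did. The differences were 0.54 ± 0.20 for Cd86, 0.57 ± 0.28 for Icosl, -0.25 ± 0.10 for Cd274 and -0.22 ± 0.12 for Havcr2, and 8 of the 13 genes lay below 0.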
